A study of Homo sapiens with 1 sample.

Results

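BAF (also called mammalian SWI/SNF) is an ATP-driven chromatin remodelling complex whose subunits are exchanged for paralogs when neural progenitors become neurons. The 10 genes described here are listed members of that exchange. They were found by symbol among 33538 listed genes, and all 10 had UMIs (unique molecular identifiers, each counted as 1 RNA molecule). Of the list, 4 are known as progenitor subunits (ACTL6A, PHF10, DPF2 and SS18) and 4 as neuronal subunits (ACTL6B, DPF1, DPF3 and SS18L1). SMARCA4, an ATPase of the complex, and BCL7A, a small accessory subunit, were set on neither side.

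The data came from 1 single-cell RNA library of H9, an established human embryonic stem cell line. The cells were labelled hHAR123 (human sequence at the accelerated region HAR123, genotype WT) and had been differentiated into neural progenitor cells (NPCs). They had been kept 2 days in 1 μM dorsomorphin and 10 μM SB431542 with a Rock inhibitor, 5 days in those inhibitors as rotating aggregates, and 7 days replated on Matrigel. The methods of the study add that independent clones were mixed for loading and that no rosettes had been picked yet. There is 1 library and no replicate, and every comparison sets cells of that library side by side. No test was run, and the 95% intervals cover counting error only.

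Of 14726 barcodes, 13925 had 2000 to 10000 detected genes and less than 10% of UMIs from mitochondrial (MT-) genes, and these were kept. A cell was called newborn neuron-like when it had UMIs of at least 3 of the 6 genes STMN2, ELAVL3, ELAVL4, INSM1, NHLH1 and NEUROD1. This gave 121 cells (0.869% of kept cells). A cell was called contractile when ANXA1, TFPI2 and CTGF together reached 5 UMIs per 10000, which gave 1582 cells (11.4%). Another 2 cells met both rules and were left out, and the other 12220 cells (87.8%) were called progenitors. The limits are not gaps: 207 progenitors had 2 neuron genes, 22 neuron-like cells had exactly 3, 89 cells scored 4 to below 5 for the contractile genes and 72 scored 5 to below 6.

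Most neuron and contractile genes outside the rules followed the class names, while progenitors were named only as the remainder. In neuron-like cells, 8 of 10 further neuron genes were at least 3-fold above progenitors, while MAP2 was 2.69-fold and SYT1 2.25-fold higher. Their summed level was 3982 UMIs per 1000000 UMIs of the class (CPM), against 1173 CPM in progenitors and 815 CPM in contractile cells. In contractile cells 7 of the 10 were below progenitors, but GAP43 was at 145.0 CPM, above its 129.8 CPM in neuron-like cells. All 8 further contractile genes, such as TAGLN and CNN1, were at least 3-fold above progenitors in contractile cells, and their summed level was 15366 CPM against 2336 CPM. Other lists had higher sums there too: 4 epithelial genes summed to 676 against 166 CPM (2 at least 3-fold, KRT8 and KRT18, and 1 lower). The 8 neural crest or mesenchyme genes summed to 86.4 against 18.8 CPM (3 at least 3-fold, mostly COL1A2, and 4 lower), with FOXD3 and DCN at 0. The 4 endoderm genes summed to 9.93 against 0.50 CPM (mostly AFP, with FOXA2 at 0). The 4 endothelial or blood genes summed to 2.78 against 1.04 CPM through CDH5 (4.43-fold), with 2 lower and HBG1 at 0. The part of such cells in the results was not tested. The neuron-like class also held UMIs of TFAP2A, a transcription factor best known from neural crest, at 25.9 CPM against 0.326 CPM in progenitors, while SOX10 was at 0.507 CPM and TWIST1 and FOXD3 were at 0. All 12 G2/M genes and all 12 S-phase genes examined were lower in neuron-like cells than in progenitors. All 8 neural progenitor genes were lower there too, as were 3 of 5 forebrain genes. In contractile cells 6 of the 8 were lower (SOX2 0.282), but VIM (4.73-fold) and NES (2.78-fold) were higher and the sum was 5282 against 2338 CPM. All 5 forebrain genes were lower in contractile cells (328 against 901 CPM). The 4 pluripotent genes summed to 362 CPM in progenitors, mostly LIN28A and DPPA4, 180 CPM in neuron-like and 258 CPM in contractile cells. Depth differed between the classes, with a median of 16944 UMIs in progenitors, 14100 in neuron-like cells and 47149.5 in contractile cells. Shares of cells with a UMI are therefore given also after each cell was thinned to 5000 UMIs, and doublets that passed the limit on detected genes cannot be told apart from deep single cells.

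The exchange works as follows in textbook accounts. ACTL6A (BAF53A) gives way to its paralog ACTL6B (BAF53B), PHF10 (BAF45A) and DPF2 (BAF45D) to DPF1 (BAF45B) and DPF3 (BAF45C), and SS18 to SS18L1 (CREST). In progenitors the repressor REST holds down neuronal genes, among them those of the microRNAs miR-9 and miR-124. In neurons these microRNAs act on the 3′ end of the ACTL6A transcript. The miR-9 sequences and their matches are printed because ACTL6A and REST carry the pattern described below. Both mature strands are from RefSeq (GRCh38.p14), were matched by name, and were the same at the 3 miR-9 loci on chromosomes 1, 5 and 15. Capitals mark the seed, bases 2 to 8:
miR-9-5p: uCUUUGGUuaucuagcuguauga
miR-9-3p: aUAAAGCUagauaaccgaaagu

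The reverse complement of each seed (ACCAAAG for miR-9-5p, AGCTTTA for miR-9-3p) was searched on the sense strand of the 3′ UTR of 1 reference transcript per gene (MANE Select, GENCODE version 44, GRCh38). The 397-base 3′ UTR of ACTL6A (chromosome 3, plus strand) held 2 matches of the miR-9-3p seed and none of the other. The 3692-base 3′ UTR of REST (chromosome 4, plus strand) held 1 match of the miR-9-5p seed. Each match is shown with its flanks, in capitals, written 5′ to 3′:
ACTL6A chr3:179588043-179588069: tcaccttacgtttcatAGCTTTAgtat
ACTL6A chr3:179588132-179588158: cacttaaattttttaaAGCTTTAactg
REST chr4:56935586-56935612: tacttttctgaggcaaACCAAAGgtaa

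Over 18780 reference 3′ UTRs of any length, 13.8% held AGCTTTA and 12.9% held ACCAAAG. Among 2037 UTRs within 25% of the length of that of ACTL6A, 54 (2.65%) held AGCTTTA, and ACTL6A was the 1 with 2 matches. Among 2400 UTRs of about the length of that of REST, 25.4% held ACCAAAG. DPF3, whose 3′ UTR has 10263 bases, held 2 matches of ACCAAAG, as 17.5% of 360 UTRs of that length did with 2 or more. The other 8 members held neither motif. A match is a description of the letters and not a measured site, and the library does not measure the microRNAs themselves.

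Levels are the UMIs of a gene in a class per 1000000 UMIs of that class. They are not divided by transcript length, so a level is compared between classes for 1 gene, and paralogs only through their share in each class. Over the 15626 genes with at least 1 CPM in kept cells, the median ratio to progenitors was 0.927 (−0.11 on the log2 scale) in neuron-like cells and 0.804 (−0.31) in contractile cells. A ratio of 1 thus lies somewhat above the typical gene in both comparisons.

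The actin-related subunits showed the widest contrast between neuron-like cells and progenitors. ACTL6B, the neuron-restricted member of the pair (chr7:100643097-100656448, minus strand), had 63 UMIs in all kept cells. Of these, 34 were in progenitors, at 0.144 CPM (0.0998 to 0.201), 25 in neuron-like cells, at 12.7 CPM (8.20 to 18.7), and 4 in contractile cells, at 0.0522 CPM (0.0142 to 0.134). The 0.869% of cells called neuron-like thus held 39.7% of all ACTL6B UMIs, and the interval of their level lay far above those of the other classes. The ratio to progenitors was 88.0 (50.3 to 152) in neuron-like cells and 0.363 (0.0935 to 1.02) in contractile cells.

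ACTL6A, the form of dividing cells (chr3:179562886-179588407, plus strand), went the other way. Its level was 107.0 CPM (105.7 to 108.3) in progenitors, 64.4 CPM (53.7 to 76.6) in neuron-like cells and 69.3 CPM (67.5 to 71.2) in contractile cells. Neuron-like and contractile cells were not separated by their intervals, and both lay below progenitors. The ratios were 0.602 (0.502 to 0.716) and 0.648 (0.629 to 0.667), the second of which turned to 1.62 when UMIs per cell were compared in place of CPM.

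Most neuron-like cells did not yield an ACTL6B UMI. It was found in 19 of the 121 (15.7%, Clopper-Pearson 9.73 to 23.4), against 32 progenitors (0.262%) and 4 contractile cells (0.253%). After thinning, the shares were 5.00%, 0.0574% and 0.0633%. The shares of progenitors and of the deeper contractile class were alike. By CPM progenitors were at 0.144 and contractile cells at 0.0522 CPM. After thinning the levels were 0.115 and 0.127 CPM, but on 7 and 1 UMIs, with a ratio interval of 0.0245 to 8.59. Against the progenitors with fewest cell cycle UMIs the contractile ratio was 0.242 (0.0576 to 0.785). Free RNA can give such single UMIs, and its part was not tested, so the few progenitors with a UMI are not read as cells that express the gene. No cell had more than 2 ACTL6B UMIs.

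ACTL6A RNA was still found in neuron-like cells, in 61 of 121 (50.4%) against 79.7% of progenitors, and in 29.2% against 40.5% after thinning. Of the 19 neuron-like cells with ACTL6B, 8 also had ACTL6A (42.1%, 20.3 to 66.5). In the 32 progenitors with an ACTL6B UMI, 23 had ACTL6A. Doublets and free RNA can also place both RNAs in 1 barcode, and their part was not tested.

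**Figure D1:**
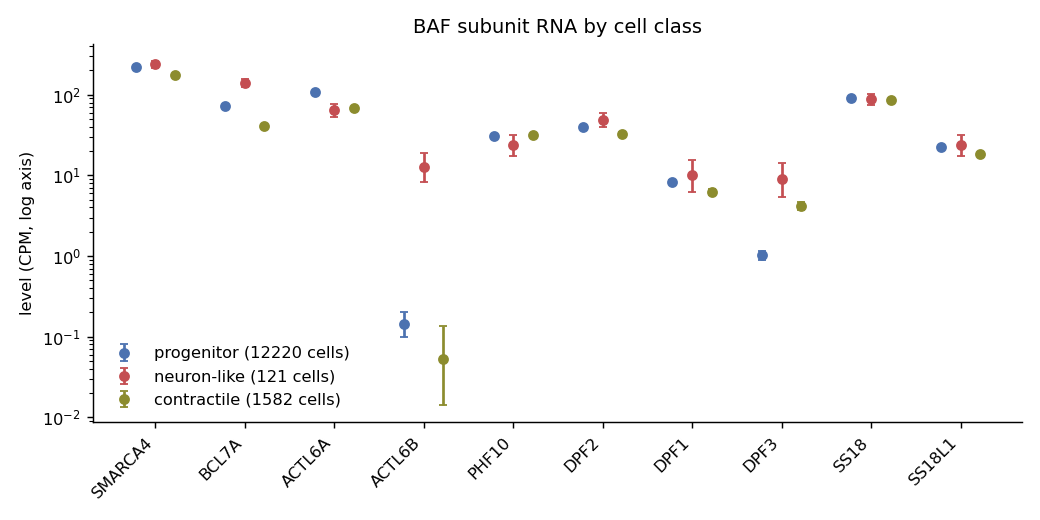
Level of each subunit RNA (CPM, log axis) in the 3 cell classes; points are pooled levels and bars their exact 95% Poisson intervals (counting error only, 1 library). ACTL6B stands at 12.7 CPM in neuron-like cells and at 0.144 and 0.0522 CPM in the other classes, while SS18 lies between 87.1 and 90.5 CPM in all 3.

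The double PHD finger family divided among its members. DPF3, which reads modified histone tails (chr14:72609034-72894101, minus strand), had 241 UMIs in progenitors (1.02 CPM, 0.896 to 1.16), 18 in neuron-like cells (9.13 CPM, 5.41 to 14.4) and 320 in contractile cells (4.18 CPM, 3.73 to 4.66). By CPM all 3 intervals were apart, with neuron-like cells highest and progenitors lowest. These intervals take UMIs as independent, so that of contractile cells, where a few cells held many UMIs, is too narrow. In UMIs per cell contractile cells were above neuron-like cells (0.202 against 0.149). Among cells with 20000 to 40000 UMIs the CPM ratios to progenitors were 2.12 in neuron-like and 2.23 in contractile cells. Only 16 neuron-like cells had that depth, and the whole class had 18 DPF3 UMIs, so this order is not settled. The ratio to progenitors was 8.94 (5.21 to 14.4) in neuron-like cells and 4.09 (3.45 to 4.86) in contractile cells.

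A few contractile cells held many of the DPF3 UMIs. In the contractile class 142 of the 1582 cells had a UMI of it (8.98%, or 1.20% after thinning, against 1.54% and 0.459% of progenitors), and 1 cell had 33. The 10 contractile cells with most DPF3 held 104 of the 320 UMIs (32.5%). The remaining cells had 2.84 CPM, 2.79 times the level of all progenitors. Progenitors without their own 10 highest cells had 0.861 CPM. In neuron-like cells no cell had more than 2 DPF3 UMIs, and 16 of 121 had any (13.2%, or 4.17% after thinning). Without the 10 that had most, which held 12 of the 18 UMIs, the others had 3.36 CPM, 3.29 times the level of all progenitors. Taking out 10 of 16 cells with a UMI lowers the level in any case, so this does not show that the UMIs lay in few cells.

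DPF1, the other neuronal member, showed no such contrast with progenitors as a whole. It was at 8.40 CPM (8.03 to 8.77) in progenitors, 10.1 CPM (6.20 to 15.7, on 20 UMIs) in neuron-like cells and 6.19 CPM (5.65 to 6.77) in contractile cells. The ratio in neuron-like cells was 1.21 with an interval of 0.736 to 1.87, which holds both no difference and a 1.5-fold difference. Against the progenitors with fewest cell cycle UMIs it was 2.37-fold higher.

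PHF10, the progenitor form tied to proliferation, was at 31.2 CPM (30.5 to 31.9) in progenitors, 23.8 CPM (17.5 to 31.7) in neuron-like cells and 31.7 CPM (30.5 to 33.0) in contractile cells. Its ratio in neuron-like cells, 0.765 (0.561 to 1.02), was below that of the typical gene, but its interval included 1. The ratio was 1.15 in cells with 20000 to 40000 UMIs, of which only 16 were neuron-like. DPF2, a broadly used form, was at 40.0 CPM in progenitors, 48.7 CPM (39.4 to 59.5) in neuron-like cells and 33.0 CPM in contractile cells, with ratios of 1.22 (0.985 to 1.49) and 0.826 (0.790 to 0.863).

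SS18 and SS18L1, paralogs of which a complex holds either, hardly differed between progenitors and neuron-like cells when each class was pooled. SS18 was at 90.5 CPM (89.3 to 91.7) in progenitors, 87.7 CPM (75.1 to 102) in neuron-like cells and 87.1 CPM (85.0 to 89.2) in contractile cells. SS18L1, a calcium-responsive activator in neurons, was at 22.4 CPM (21.8 to 23.0), 23.8 CPM (17.5 to 31.7) and 18.2 CPM (17.3 to 19.2). The neuron-like ratios were 0.970 (0.830 to 1.13) for SS18 and 1.06 (0.780 to 1.42) for SS18L1.

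SMARCA4, an ATPase motor of the complex to which SMARCA2 is the alternative, was at 222.7 CPM in progenitors. It was at 238.4 CPM (217.3 to 260.9) in neuron-like cells and 175.8 CPM (172.9 to 178.8) in contractile cells. The neuron-like ratio of 1.07 (0.976 to 1.17) included 1, and the contractile ratio of 0.790 (0.775 to 0.805) was next to the median of all genes. BCL7A (chr12:122019422-122062044, plus strand) was at 72.5 CPM (71.4 to 73.6), 140.0 CPM (123.9 to 157.5) and 41.2 CPM (39.7 to 42.6). It was thus highest in neuron-like cells, with a ratio of 1.93 (1.71 to 2.17) that was 1.33 with 2 neuron genes in place of 3, and lowest in contractile cells, with a ratio of 0.568 (0.546 to 0.590) that turned to 1.42 on the scale of UMIs per cell.

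Ratios of at least 1.5 in either direction were counted among the 9 members that reached 1 CPM in kept cells. ACTL6B, at 0.200 CPM, did not. In neuron-like cells 2 of the 9 were higher (DPF3 and BCL7A), where 16.0% of all genes were, and 1 was lower (ACTL6A), where 25.1% were. In contractile cells 1 was higher (DPF3), against 11.8% of all genes, and 2 were lower (ACTL6A and BCL7A), against 35.9%. In neuron-like cells the ratio of ACTL6A missed the limit with 2 neuron genes (0.858), after thinning (0.673) and against progenitors with fewest cycle UMIs (0.800). It also missed it in cells with 20000 to 40000 UMIs (0.769, on 16 neuron-like cells). Its contractile ratio lay close to the limit and missed it after thinning (0.712), where DPF1 passed it (0.653), with the mean of per-cell CPM (0.693) with a contractile limit of 2 per 10000 (0.676), without the 10% of cells with most UMIs (0.680) and against progenitors with fewest cycle UMIs (0.861). These counts were not far from the background shares. The median ratio of the 9 members was 1.07 in neuron-like cells and 0.812 in contractile cells. In UMIs per cell, 8 of the 9 members were at least 1.5-fold higher in contractile cells and none lower, where 71.2% of all genes were higher and 5.45% lower and the median of all genes was 2.02.

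**Figure D2:**
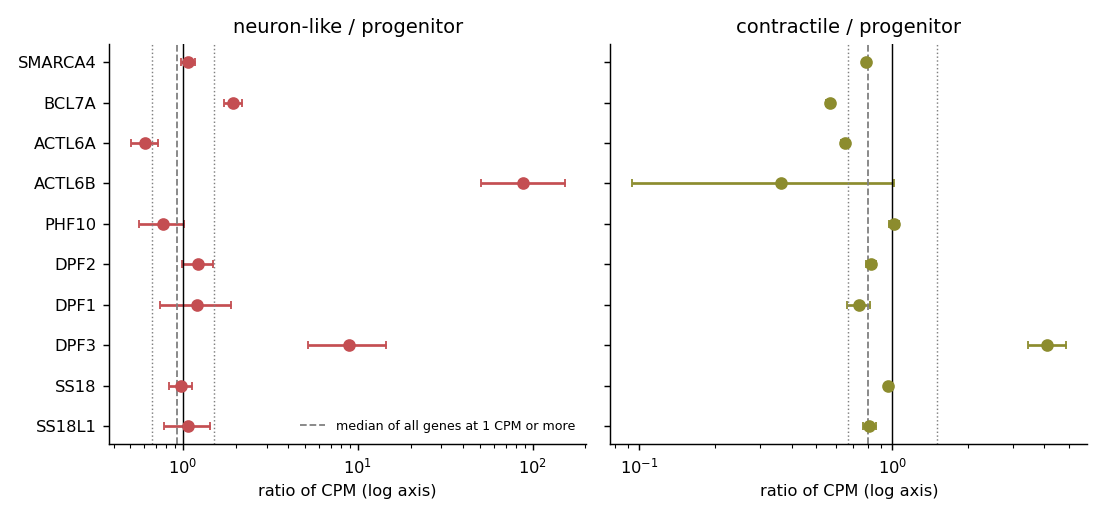
Ratio of CPM (log axis) of each subunit in neuron-like cells (left) and contractile cells (right) over progenitors, with exact 95% intervals; the solid line marks 1, the dashed line the median of all genes (0.927 and 0.804) and the dotted lines a 1.5-fold difference. ACTL6B (88.0) and DPF3 (8.94) stand out to the right in neuron-like cells. The contractile ratios below 1, ACTL6A and BCL7A among them, lie above 1 in UMIs per cell, apart from ACTL6B. On that scale the contractile median of all genes is 2.02.

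Shares within a family need no scaling by the total UMIs of a cell, but pooled shares weight deep cells more. The share of ACTL6B in ACTL6A plus ACTL6B was 0.134% (0.0931 to 0.188) in progenitors, 16.4% (10.9 to 23.3) in neuron-like cells and 0.0753% (0.0205 to 0.193) in contractile cells. The difference between neuron-like cells and progenitors was 16.3 percentage points (11.3 to 23.0), 12.4 points after thinning and 4.59 points with 2 neuron genes in place of 3. It was 4.70 points in cells with 20000 to 40000 UMIs, of which only 16 were neuron-like. ACTL6A therefore still held most UMIs of the pair in neuron-like cells.

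The neuronal forms DPF1 and DPF3 together held 11.7% (11.2 to 12.2) of the UMIs of PHF10, DPF1, DPF2 and DPF3 in progenitors, 21.0% (15.3 to 27.7) in neuron-like cells and 13.8% (12.9 to 14.7) in contractile cells. The difference was 9.31 points (3.99 to 15.8) in neuron-like cells, but 3.51 points with 2 neuron genes in place of 3. It was −1.53 points in cells with 20000 to 40000 UMIs, of which only 16 were neuron-like. Nearly all of the 9.31 points was DPF3, whose share went from 1.27% to 9.94%, while that of DPF1 differed by 0.631 points (−3.18 to 6.05). That holds against all progenitors only. In the progenitors with fewest cell cycle UMIs the combined share was 7.70% (6.95 to 8.51). Against these, DPF1 was also higher in neuron-like cells (2.37-fold). PHF10 held 38.7% of the family in progenitors and 26.0% (19.7 to 33.0) in neuron-like cells, and DPF2 held 49.6% and 53.0%. In contractile cells the difference of 2.12 points (1.13 to 3.14) combined a DPF3 share 4.30 points higher with a DPF1 share 2.18 points lower. It shrank to 0.0934 points after thinning and turned to −0.811 points with an MT- limit of 5%.

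SS18L1 held 19.9% (19.4 to 20.3) of the SS18 pair in progenitors, 21.4% (16.1 to 27.4) in neuron-like cells and 17.3% (16.5 to 18.1) in contractile cells. The neuron-like difference of 1.5 points had an interval from −3.42 to 7.4 points, so a shift of a few points either way was not detectable at this depth. The SS18L1 share was 32.4% (21.5 to 44.8) in neuron-like cells with 3 or 4 neuron genes and 16.4% (10.9 to 23.3) with 5 or 6. Among the BCL7 paralogs, BCL7A held 41.3% in progenitors, 66.7% (61.9 to 71.2) in neuron-like cells and 26.4% in contractile cells. BCL7C was lower in neuron-like cells, at 47.2 against 78.3 CPM (ratio 0.602, 0.486 to 0.738), while BCL7B had a ratio of 0.916.

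**Figure D3:**
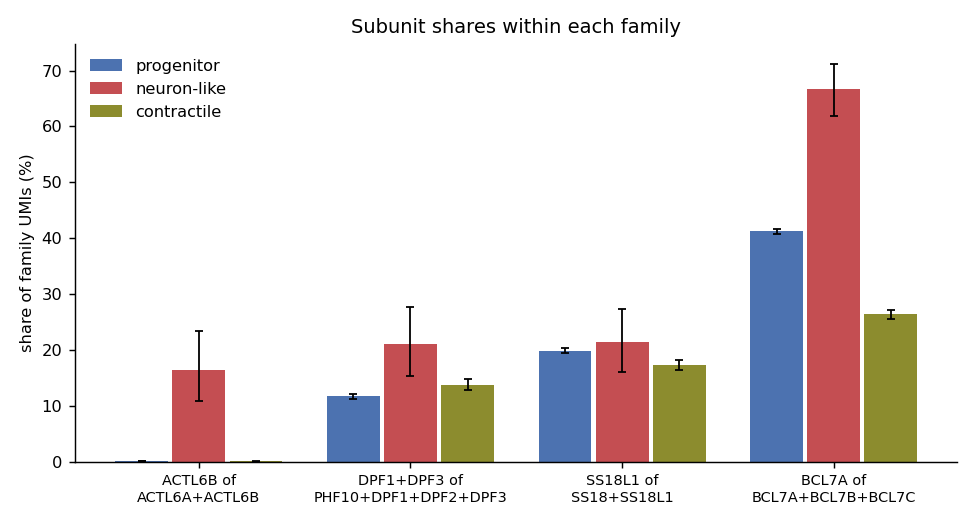
Share of the UMIs of a family (%, axis from 0) held by the named subunits in each cell class, with Clopper-Pearson 95% intervals as bars. The neuron-like class is highest for ACTL6B (16.4%), DPF1 plus DPF3 (21.0%) and BCL7A (66.7%), and its interval for SS18L1 (16.1 to 27.4%) includes the progenitor share of 19.9%.

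ACTL6B and DPF3 had their higher shares in neuron-like cells without SOX2, a transcription factor of neural stem cells. SOX2 UMIs were present in 61 neuron-like cells (median 15622 UMIs) and not found in 60 (median 12500.5). The cells with SOX2 also had more cycle RNA, with TOP2A at 185.1 against 14.8 CPM and MKI67 at 84.8 against 2.68 CPM. The part of the cell cycle and of doublets in this division was not tested. ACTL6B was at 7.34 CPM (9 UMIs) with SOX2 and 21.5 CPM (16 UMIs) without, a ratio of 2.92 (1.22 to 7.51). ACTL6A was at 74.2 CPM with SOX2 and 48.3 CPM without, a ratio of 0.651 (0.429 to 0.967). The ACTL6B share of the pair was 9.0% (4.2 to 16.4) with SOX2 and 30.8% (18.7 to 45.1) without.

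DPF3 had 2 UMIs in the cells with SOX2 and 16 in those without, and DPF1 and DPF3 held 13.3% and 31.6% of their family. REST was at 55.5 CPM in the cells with SOX2 and 9.39 CPM in those without, a ratio of 0.169 (0.0656 to 0.368). BCL7A did not follow this division, at 144.3 and 132.8 CPM. SOX2 was also read after thinning, which put 43 cells with and 77 without it. The ACTL6B share was then 9.09% (3.73 to 17.8) and 24.0% (14.9 to 35.3), with overlapping intervals. DPF3 was at 2.25 CPM (0.273 to 8.13, on 2 UMIs) and 14.8 CPM (8.48 to 24.1).

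Levels were also followed by the number of the 6 neuron genes found, in cells outside the contractile class. The 9712 cells with none had 0.130 CPM of ACTL6B and 106.7 CPM of ACTL6A. With 1 gene (2301 cells) the values were 0.127 and 108.5 CPM, and with 2 genes (207 cells) 0.906 CPM (on 4 UMIs) and 104.2 CPM. With 3 genes (22 cells) they were 8.25 CPM (on 3 UMIs) and 82.5 CPM, and with 4 or more (99 cells) 13.7 and 60.3 CPM. Both RNAs thus differed little between 0 and 1 gene. ACTL6B was higher from 2 genes on, and the interval of ACTL6A lay below the level with 0 genes only for 4 or more genes (with 3 genes it was 55.7 to 117.8 CPM).

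The neuron genes were also counted after thinning, which lessens the part of depth but also moves neuron-like cells into lower groups. With 3 or more genes needed, 93 cells were neuron-like, against 121 before. ACTL6B was then at 0.128 CPM with 0 genes, 0.292 with 1, 10.7 with 2 (49 cells, 10 UMIs), 8.64 with 3 and 14.5 with 4 or more. ACTL6A was at 107.3, 105.0, 66.5, 53.5 and 56.6 CPM in the same order, with an interval of 51.0 to 85.3 CPM at 2 genes. REST was at 110.9, 113.9, 91.2, 41.4 and 5.27 CPM, and BCL7A at 72.6, 70.9, 100.8, 96.7 and 188.3 CPM. The group with 2 genes had ACTL6B near its highest level (5.14 to 19.7 CPM) and REST near its progenitor level (72.8 to 112.7 CPM), while DPF3 had 1 UMI there. That group is mixed. The 207 cells with exactly 2 genes before thinning had 4 ACTL6B UMIs, so most of its 10 came from cells with more genes. It is therefore not read as a step between progenitors and neuron-like cells. The last group of REST rests on 4 UMIs.

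**Figure D4:**
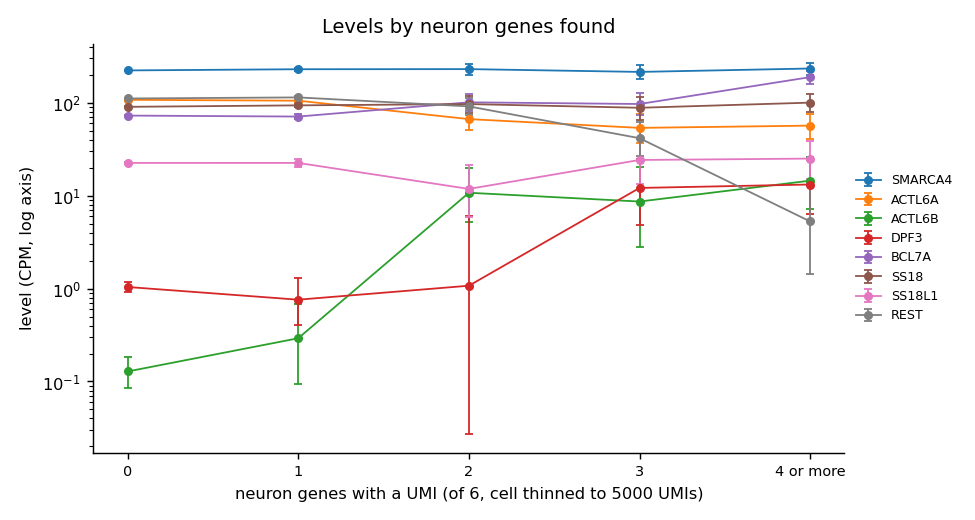
Level (CPM, log axis) of 7 subunits and REST in non-contractile cells by how many of the 6 neuron genes had a UMI after each cell was thinned to 5000 UMIs; bars are exact 95% Poisson intervals. ACTL6B goes from 0.128 CPM with 0 genes to 14.5 CPM with 4 or more, REST from 110.9 to 5.27 CPM, and SMARCA4 stays between 214.2 and 233.0 CPM.

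ACTL6A, DPF1 and BCL7A also varied with the cell cycle among progenitors. The 4074 progenitors highest in the 12 G2/M genes had 126.7 CPM of ACTL6A, the 2910 others high in S-phase genes had 100.9 CPM, and the 4074 with fewest cycle UMIs had 80.5 CPM (78.2 to 82.8). DPF1, counted here as a neuronal subunit, was at 7.86, 14.3 and 4.28 CPM. Its S-phase level was 3.34 times (2.90 to 3.86) that of the progenitors with fewest cycle UMIs, and the DPF1 plus DPF3 share of the family was 17.6% in S-phase-high against 7.70% in cycle-low progenitors.

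SS18 was at 103.6 CPM in the G2/M-high, 76.5 CPM in the S-high and 85.1 CPM in the cycle-low progenitors. BCL7A was at 77.7, 80.8 and 58.7 CPM, and DPF3 at 0.821, 0.806 and 1.61 CPM. The G2/M-high group was deepest (median 21932.5 UMIs, against 17396 and 13675.5). The part of depth in these differences was not tested.

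Neuron-like cells had few cycle UMIs themselves, a median of 2.80 per 10000 over the 24 genes against 32.5 in progenitors. Against the cycle-low progenitors, the ratio of ACTL6A in neuron-like cells was 0.800 (0.666 to 0.954), no longer a 1.5-fold difference. The ratio of ACTL6B was 58.8 (29.0 to 125), that of DPF3 was 5.68 (3.23 to 9.45) and that of BCL7A was 2.39 (2.10 to 2.70). The interval of the 2.37-fold difference of DPF1 was 1.42 to 3.74. In contractile cells, against the same progenitors, ACTL6A had a ratio of 0.861 and BCL7A of 0.702, and DPF3 of 2.60 (2.07 to 3.30), while DPF1 turned from 0.737 to 1.45 (1.24 to 1.69).

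Across the contractile score, ACTL6A, BCL7A and DPF3 differed most at the limit of the class. With a summed score of 0 (7813 cells), above 0 and below 1 (3061 cells), 1 to below 5 (1346), 5 to below 20 (844) and 20 or more (738), ACTL6A was at 107.7, 109.8, 98.8, 74.8 and 64.5 CPM. BCL7A was at 74.4, 73.3, 63.3, 44.2 and 38.5 CPM. DPF3 was at 0.962, 0.963, 1.38, 3.83 and 4.49 CPM. Depth changed at the limit too, from a median of 21455 to 40317 UMIs, and its part was not tested.

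ACTL6B had 0 UMIs in the 738 cells of the highest score, for which the limit is 0.0740 CPM. SS18 was at 85.3 CPM there and PHF10 at 29.7 CPM, against 89.8 and 30.0 CPM at a score of 0. SMARCA4 was at 218.8 CPM at a score of 0 and 166.4 CPM at the highest. On the scale of UMIs per cell the contractile class was above progenitors for 9 of 9 members at 1 CPM or more. That scale follows depth, and on it the median ratio of all genes was 2.02, with 71.2% at least 1.5-fold higher. ACTL6A (1.62) and BCL7A (1.42) were above progenitors but below that median, so their direction depends on the scale.

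**Figure D5:**
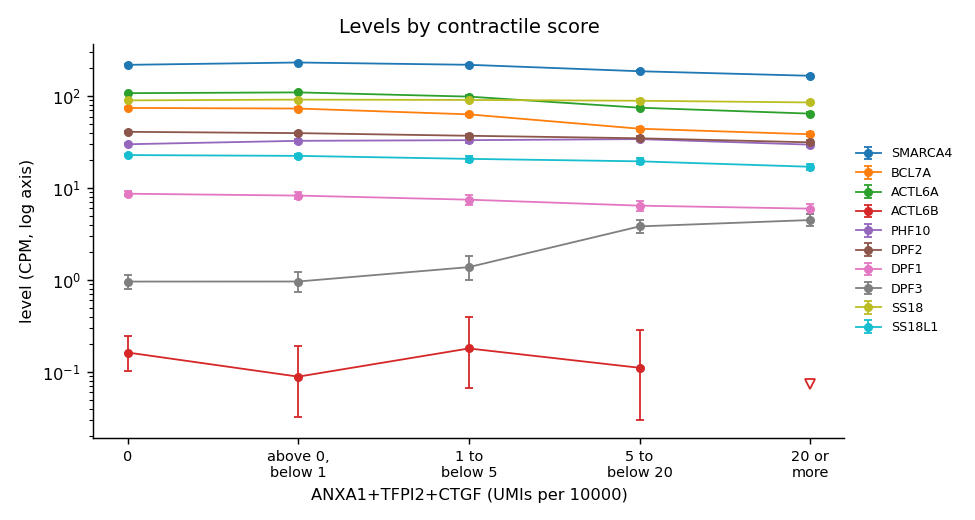
Level (CPM, log axis) of the 10 subunits by summed ANXA1, TFPI2 and CTGF UMIs per 10000 in cells that are not neuron-like; bars are exact 95% Poisson intervals and the open triangle is the limit that 0 UMIs allow (0.0740 CPM, ACTL6B). DPF3 goes from 0.962 to 4.49 CPM while ACTL6A goes from 107.7 to 64.5 and BCL7A from 74.4 to 38.5 CPM. In UMIs per cell ACTL6A (1.62) and BCL7A (1.42) are above progenitors in contractile cells, where the median ratio of all genes is 2.02.

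The rest of the complex was read from a list of 21 other subunits of BAF and its PBAF and GBAF forms, all of which reached 1 CPM. In neuron-like cells 2 were at least 1.5-fold higher and 4 at least 1.5-fold lower, where 16.0% and 25.1% of all genes were, and their median ratio was 0.936. These counts were no larger than the background gives. ARID1B, a large BAF-specific scaffold, was at 479.2 against 313.6 CPM (1.53, 1.43 to 1.63), while its paralog ARID1A had a ratio of 1.21. BCL11A had only 3 UMIs. On the lower side, SMARCA2, the alternative ATPase, had 4 UMIs (0.313, 0.0852 to 0.803) and SMARCD3, best known from heart, had a ratio of 0.643 (0.442 to 0.904). BCL7C was given above, and BCL11B had 2 UMIs.

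In contractile cells 3 of the 21 were higher and 5 lower by 1.5-fold, where 11.8% and 35.9% of all genes were. Their median ratio was 0.726, and 20 of 21 were above progenitors in UMIs per cell, a scale on which the median of all genes was 2.02. ACTB, the actin of the complex and of the cytoskeleton, was at 3871 against 1901 CPM (2.04). SMARCD2 had a ratio of 1.51. BCL11A had a ratio of 3.02 (160 UMIs), but was below 1 CPM in progenitors (0.691) and passed the filter only through the other classes. The lower ones were BICRAL (0.469), SMARCE1 (0.542), ARID2 (0.575), SMARCC2 (0.607) and BCL11B (0.202). Among paralog shares, SMARCC2 in SMARCC1 plus SMARCC2 was 14.5% in progenitors, 17.1% (14.8 to 19.6) in neuron-like and 12.9% in contractile cells. SMARCA2 held 2.83%, 0.844% and 3.05% of the ATPase pair, and SMARCD3 19.1%, 14.4% and 17.8% of the SMARCD UMIs. BCL11B held 73.1%, 40.0% (2 of 5 UMIs) and 15.3% of its pair.

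Upstream of the exchange, REST and the transcripts that contain the miR-9 loci were read. REST was at 111.1 CPM in progenitors, 38.0 CPM in neuron-like cells (0.342, 0.269 to 0.429) and 89.9 CPM in contractile cells (0.809). LINC00461, whose span on chromosome 5 contains a miR-9 locus, was at 3.56, 101.4 and 1.45 CPM, 28.5-fold (24.3 to 33.3) higher in neuron-like cells. C1orf61, which contains the locus on chromosome 1, was at 15.8, 113.1 and 0.627 CPM (7.17-fold, 6.23 to 8.21). MIR9-3HG, around the locus on chromosome 15, had 3 UMIs in neuron-like cells, a ratio of 2.43 with an interval of 0.495 to 7.23. A host transcript is not the microRNA, and its level need not follow it.

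In contractile cells LINC00461 (0.407) and C1orf61 (0.0397) were below progenitors by CPM, while in UMIs per cell LINC00461 was at 0.0702 against 0.0687 and C1orf61 at 0.0303 against 0.305. In neuron-like cells with and without SOX2, LINC00461 was at 108.5 and 89.9 CPM and C1orf61 at 132.1 and 81.8 CPM.

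The genes whose levels were most like those of the ACTL6 pair were sought over 13 cell groups (the 5 by neuron genes, the 5 by contractile score and the 3 by cell cycle), which share cells. For ACTL6A, among 9999 genes at 10 CPM or more, they were NFYB (Pearson r of log2 values 0.994), CBX5 (0.985) and HNRNPR (0.981). NFYB is a subunit of a CCAAT-binding factor, and its ratios were 0.581 in neuron-like and 0.633 in contractile cells. For ACTL6B, among 15626 genes at 1 CPM or more, they were LHX9 (0.999), ST18 (0.998) and CHST8 (0.996). LHX9 and ST18 encode transcription factors and were among the 10 genes with the highest ratios in neuron-like cells, at 640.1 and 952.6. Over all kept cells LHX9, ST18 and CHST8 were at 1.34, 1.47 and 1.28 CPM. They passed the filter only through the neuron-like class, where they are high, so their likeness to ACTL6B is no separate support. With so few groups, several of them nearly free of ACTL6B, the coefficients of ACTL6B rest on the neuron-like groups.

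The neuron-like values rest on 121 cells, and few of them are deep. In the 16 neuron-like cells with 20000 to 40000 UMIs, compared with progenitors of that depth, the ratio of BCL7A was 1.56, and the SS18L1 share differed by −5.71 points.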

How the data were processed

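The authors deposited raw UMI counts per gene and barcode of 1 library (Chromium 3′ HT v3.1), with no normalization. The submitters' processing notes name Cell Ranger 7.0.1, Seurat 4.4.0 and GRCh38. The annotation version and strand setting are not given in the sources used here. The counter's default in that release also counts intronic reads, which may weigh on DPF3 (285.1 kb span). On the opposite strand, ACTL6A overlaps MRPL47 and PHF10 overlaps C6orf120, and on its own strand PHF10 overlaps an annotated lncRNA by 476 bases. All barcodes shared 1 suffix, and so did not separate the loading wells.

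Kept cells held 314660383 UMIs, of which progenitors had 235969837, neuron-like cells 1971847 and contractile cells 76572802. Levels are pooled CPM with exact Poisson intervals. Ratios carry exact conditional intervals, shares Clopper-Pearson intervals and their differences Newcombe intervals. UMIs of different cells were treated as independent, so the intervals are too narrow where cells differ. A count of 0 was given the limit of 3 counts. Thinning to 5000 UMIs left out 28 kept cells. Cycle groups were the 4074 progenitors with most G2/M UMIs per 10000, 2910 others high in S-phase UMIs, and the 4074 with fewest of both, which may share cells with the S-phase group. Positions are from GENCODE version 44 on GRCh38. Likeness used log2(CPM + 1). The study's methods apply the gene limits against multiplets, and no doublet caller was run here.

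The members, lists and settings were chosen with earlier results of these data known. Named genes were the 10 members, genes of the lists past 1.5-fold or in a paralog pair, and the 3 genes most like ACTL6A and ACTL6B. The calculation of ratios was tested on simulated data. Alternatives covered the class limits, filters, depth and scaling. Python 3.11.15 with scipy 1.17.1, numpy 2.4.6, matplotlib 3.10.9 and pandas 2.3.3 were used.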

Additional observations from a re-analysis of the deposited data

How the results depend on the processing

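Of the 18 alternatives to the class limits, filters, depth and scaling, 1 was added after the values given here were seen. It kept only cells with 20000 to 40000 UMIs, of which 16 were neuron-like. The others were set before that, but with earlier results of these data known. Of 320 log2 ratios of single members, 29 took the opposite sign, 7 of them in contractile cells in UMIs per cell. The ratio of ACTL6B in neuron-like cells stayed between 35 and 107, that of DPF3 between 2.12 and 12.5, and that of DPF3 in contractile cells between 2.23 and 10.3. In contractile cells the log2 ratio of ACTL6B turned to 0.14 after thinning, on 1 contractile UMI, and to 0.022 at 20000 to 40000 UMIs. In UMIs per cell, a scale that follows the depth of the class, the contractile log2 ratios of ACTL6A, BCL7A, DPF1, SMARCA4, SS18L1, DPF2 and SS18 turned to 0.70, 0.51, 0.89, 0.99, 1.03, 1.05 and 1.27. The neuron-like share differences became 4.59 (ACTL6) and 3.51 points (PHF10/DPF) with 2 neuron genes, and 4.70, −1.53 and −5.71 points (ACTL6, PHF10/DPF and SS18) at 20000 to 40000 UMIs. The contractile ones became −0.192 (ACTL6) and 6.10 points (PHF10/DPF) against cycle-low progenitors, and for PHF10/DPF 0.0934 points after thinning and −0.811 points with an MT- limit of 5%. The causes were not tested.

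Counts of members past 1.5-fold are given with the share of all genes past it in brackets. They are of 9 members, but of 7 with a filter of 10 CPM and of 10 with 0.1 CPM. The count higher in neuron-like cells became 1 with 2 neuron genes (6.82%) or a filter of 10 CPM (10.6%). It became 3 against cycle-low progenitors (14.8%) or with a filter of 0.1 CPM (21.1%). The count lower became 0 with 2 neuron genes (4.92%), against cycle-low progenitors (21.0%), after thinning (32.4%) and at 20000 to 40000 UMIs (26.7%). It became 2 with neuron genes counted after thinning (30.6%), the mean of per-cell CPM (28.9%) or UMIs per cell (36.2%). It was also 2 with the 10% of cells with most UMIs removed (29.8%). In contractile cells the count higher became 8 in UMIs per cell (71.2%) and 0 at 10 CPM (11.3%). The count lower there became 1 with a limit of 2 per 10000 (33.5%), the mean of per-cell CPM (36.0%) or the deepest 10% removed (35.9%). It became 0 against cycle-low progenitors (35.7%) or in UMIs per cell (5.45%). It became 3 with an MT- limit of 5% (37.0%) or a filter of 0.1 CPM (41.6%). No paired analysis was possible because there is 1 library.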
